A study of Mus musculus with 12 samples.

Results

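The comparison set the lungs of mice that had breathed more than 95% oxygen against the lungs of mice kept in room air, both on a diet with 10% fat. The mice were C57BL/6J, a common inbred strain, and their whole lungs were flash-frozen. RNA-seq covered 12 samples: 3 of the 10% fat diet under oxygen, 3 of that diet in room air, 3 of a 60% fat diet under oxygen and 3 of that diet in room air. The diets lasted 12 weeks. The order of diet and exposure is not clear from the labels, and the sources used here give neither the length of the exposure nor the age of the mice. The series title names obesity by diet and lung injury by oxygen as the subject, and this comparison answers what oxygen changed in lungs without the high-fat diet. The "oxygen lungs" and "room-air lungs" below are the 3 and 3 samples of the 10% fat diet. Its members were the genes with at least 1 RPKM (a read count divided by transcript length and by the mapped reads of the library) in at least 3 of the 12 libraries, with at least 2 values in each group: 13324 of the 20793 entries in the table. No label ties a sample to an animal, so the p-values speak only for the spread among these 12 samples, some of which may be technical.

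Breathing nearly pure oxygen raises the production of reactive oxygen species inside lung cells, and the thin alveolar epithelium and the capillary endothelium are the classic sites of the injury, after which fluid and inflammatory cells enter the airspaces. Lung cells answer such damage through a few transcription factors: p53 responds to damaged DNA, NRF2 drives the genes that make and recycle glutathione and thioredoxin, and ATF4 carries the integrated stress response, which turns on amino acid uptake and synthesis while most translation is held back. Type 2 cells, which make surfactant, are also the progenitors that replace lost type 1 cells, and they pass through a keratin-rich state on the way.

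The rough depth was 20.4 to 24.5 M reads in the oxygen libraries and 23.8 to 26.0 M reads in the room-air libraries, taken from the spacing of low RPKM values. Pearson's r between libraries of a group, across genes, lay between 0.990 and 0.995 under oxygen and between 0.981 and 0.988 in room air, and the first principal component of all 12 libraries held 76.4% of the variance and parted the exposures. Every library carried the defining RNAs of lung. Sftpc, the surfactant protein C gene of type 2 cells, stood at 13868, 10710.4 and 12663 RPKM in the oxygen lungs, against 20361, 27979 and 27276 RPKM in the room-air lungs. Ager, the type 1 cell gene, stood at 1527, 1253 and 1439 RPKM under oxygen against 1423, 1779 and 1438 in room air. The endothelial gene Pecam1 stood at 216, 234 and 223 RPKM under oxygen against 289.6, 219 and 227 in room air. The ciliated cell regulator Foxj1 stood at 34.8, 33.1 and 29.3 RPKM under oxygen against 63.1, 74.7 and 55.9 in room air.

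Oxygen reached the majority of the genes tested. With an adjusted p under 0.05 (limma on log2(RPKM + 0.5), Benjamini-Hochberg over 13324 genes), 7923 genes were called, which is 59.5%. Of these, 3366 were higher under oxygen (25.3% of those tested) and 4557 were lower (34.2%). Most changes were small: the median fold was 1.48 among the genes called higher and 1.59 among those called lower. Changes of at least 2-fold were called in 624 higher genes (4.68%) and 1064 lower genes (7.99%), of at least 4-fold in 103 higher and 92 lower, and of at least 8-fold in 26 higher and 10 lower. Past 16-fold there were 5 genes, all higher, so the falls outnumbered the rises while the far end of the range belonged to rises. The 3 oxygen values and the 3 room-air values did not overlap in 8990 genes (67.5%). The median log2 change of all tested genes was −0.08, and 42.5% of the calls were higher, against 49.7% with median-ratio scaling and 50.5% with quantile normalization.

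Among the largest rises were secreted stress signals, a junction protein, metal-binding proteins and the starter of coagulation. Gdf15, which encodes a secreted cytokine of the cellular stress response (chromosome 8, 73153293 to 73155534), had 326, 447 and 354 RPKM in the oxygen lungs, against 3.57, 3.77 and 15.8 RPKM in the room-air lungs. Positions here follow the deposited table, whose build was mm8 or mm9, which no source settles. Room-air replicate 3 lay above its other 2 libraries but far below every oxygen library. The change was 56.7-fold (log2 change 5.83 ± 0.43 SE, adjusted p = 5.28e-07), on the log2(RPKM + 0.5) scale used for all folds, which understates the change of low genes. Signed values without a unit below are log2 changes on that scale, oxygen over room air, with their SE after ±. The word unsteady after one marks a call, made or missed, that changed without at least 1 of the 6 libraries or under another processing; the range of adjusted p behind it stands in the closing section. Prss22, a trypsin-like serine protease known from airway epithelium (chromosome 17, 24130501 to 24135067), had 29.7, 34.8 and 36.5 RPKM in the oxygen lungs, against 0.443, 0.201 and 0.209 RPKM in the room-air lungs (5.45 ± 0.16, adjusted p = 6.61e-10). Cldn4, a claudin that tightens the seal between epithelial cells (chromosome 5, 135420993 to 135422804), had 134, 145 and 153 RPKM in the oxygen lungs, against 2.55, 3.61 and 3.29 RPKM in the room-air lungs (5.31 ± 0.12, adjusted p = 7.38e-11). For neither gene did the groups come near each other. Adm2, which encodes a vasodilator peptide related to adrenomedullin, had 17.2, 17.7 and 14.2 RPKM in the oxygen lungs, against 0.302, 0.204 and 0.260 RPKM in the room-air lungs (4.48 ± 0.16). Doc2b, a calcium sensor of vesicle fusion, had 9.70, 9.45 and 14.2 RPKM in the oxygen lungs, against 0.311, 0.207 and 0.214 RPKM in the room-air lungs (3.94 ± 0.24). Both were below 0.5 RPKM in each room-air library and at 5 RPKM or more in each oxygen library, which held for 5 tested genes with Prss22, Nppb and Gm3776; no gene showed the opposite pattern. Nppb, the gene of the B-type natriuretic peptide of stretched heart muscle, had 6.66, 6.55 and 5.09 RPKM under oxygen against 0, 0.426 and 0.0762 in room air (3.35 ± 0.22).

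The metallothioneins, small proteins that bind zinc and copper, rose together. Mt2 (chromosome 8, 96696518 to 96697467) had 1756, 2206 and 2474 RPKM in the oxygen lungs, against 60.1, 88.6 and 169.5 RPKM in the room-air lungs (4.45 ± 0.29, adjusted p = 2.08e-07). Mt1 had 1370.2, 1548 and 1798 RPKM under oxygen against 101, 147 and 205 in room air (3.42 ± 0.22). F3, the gene of tissue factor, which starts the coagulation cascade (chromosome 3, 121426455 to 121437970), had 675, 654 and 716 RPKM in the oxygen lungs, against 43.9, 47.5 and 42.04 RPKM in the room-air lungs (3.92 ± 0.10, adjusted p = 1.65e-10). In each of these genes the lowest oxygen library stood several-fold above the highest room-air one. The matricellular genes Cyr61 and Ctgf, best known as targets of the YAP coactivator and of TGF-beta, rose together. Cyr61 had 692, 661 and 759 RPKM under oxygen against 45.7, 46.8 and 47.1 in room air (3.90 ± 0.17). Ctgf had 729.8, 855 and 682 RPKM under oxygen against 88.4, 66.9 and 48.6 in room air (3.50 ± 0.20). Ankrd1, a nuclear protein known from stressed muscle and another YAP target, had 359, 371 and 292 RPKM under oxygen against 21.5, 20.4 and 25.7 in room air (3.89 ± 0.14). Sprr1a, a protein of the cornified envelope of squamous epithelium, had 30.7, 34.4 and 48.3 RPKM under oxygen against 1.43, 3.56 and 2.31 in room air (3.75 ± 0.30). Without Nppb, the genes given here since Gdf15 are the 12 largest rises among called genes with a gene name. Eligible genes also averaged at least 3 RPKM in the higher group and had no overlap between the groups. The predicted gene Gm3776 (3.53 ± 0.22), left out as unnamed, stood between Sprr1a and Ctgf.

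**Figure D1:**
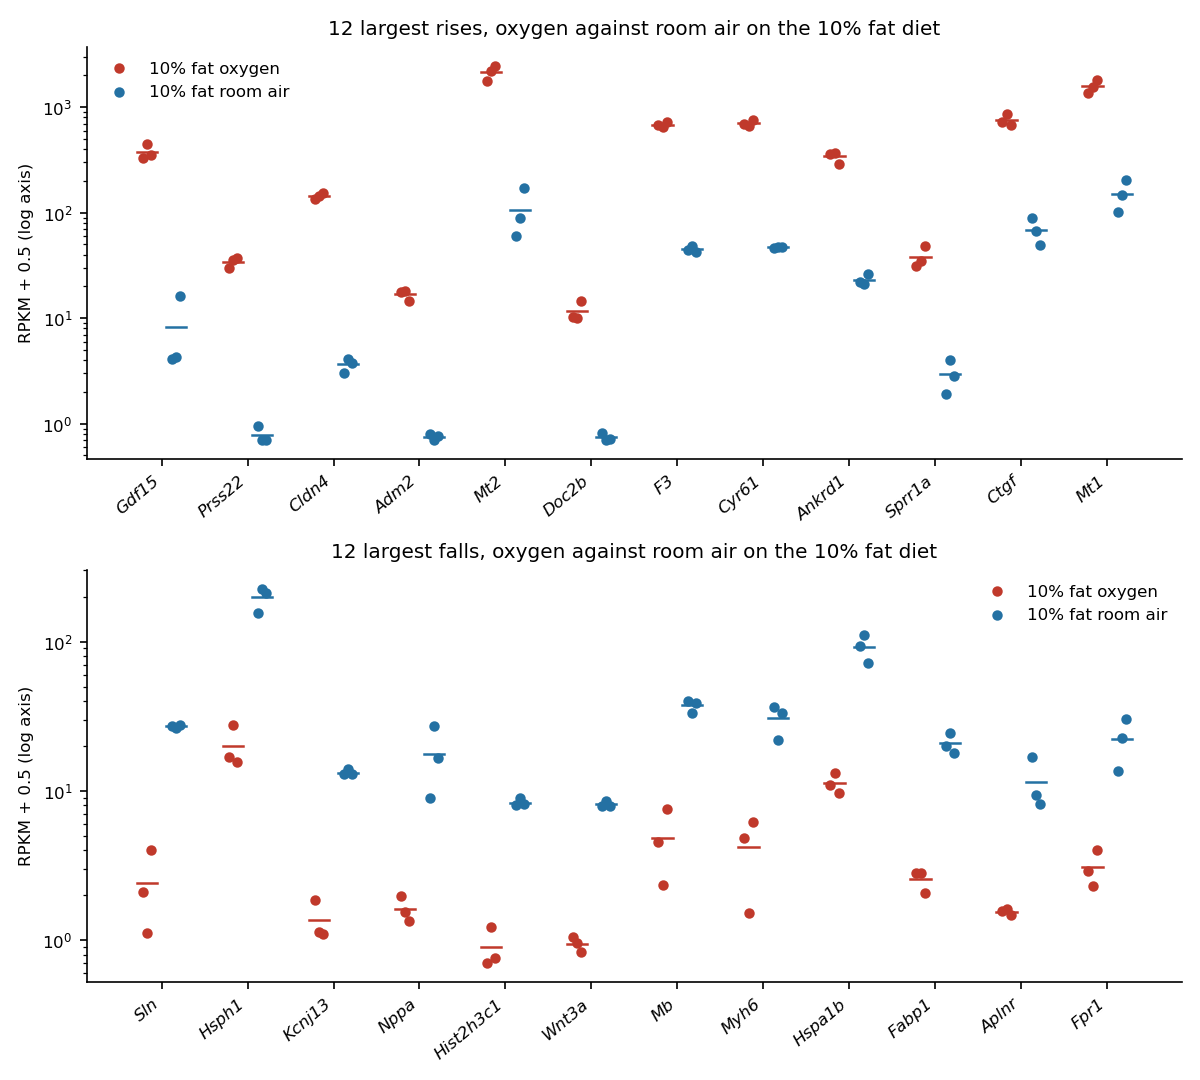
Level of the 12 genes with the largest rises (top, predicted genes such as Gm3776 left out) and the 12 with the largest falls (bottom) in each library, as RPKM + 0.5 on a log axis; dots are libraries (3 per group), lines are group means, and the oxygen group stands left of the room-air group. Only genes without overlap between the groups were eligible, so the separation follows from the choice. Room-air Gdf15 spreads most among the rises, with 1 library at 15.8 RPKM and the others at 3.57 and 3.77.

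The largest falls named muscle genes, heat shock genes and a few regulators. Sln, which encodes a small inhibitor of the calcium pump of atrial and skeletal muscle (chromosome 9, 53698058 to 53701656), had 1.61, 0.612 and 3.49 RPKM in the oxygen lungs, against 26.8, 25.7 and 27.2 RPKM in the room-air lungs (−3.68 ± 0.58, adjusted p = 0.000162). Nppa, the atrial natriuretic peptide gene, had 1.49, 1.04 and 0.838 RPKM under oxygen against 8.47, 26.6 and 15.99 in room air (−3.31 ± 0.46). Mb, the myoglobin gene, had 4.04, 1.86 and 7.01 RPKM under oxygen against 39.3, 32.7 and 38.5 in room air (−3.11 ± 0.52). Myh6, a cardiac myosin heavy chain gene, had 4.34, 1.03 and 5.68 RPKM under oxygen against 36.2, 21.4 and 32.7 in room air (−3.06 ± 0.50). The room-air libraries of Nppa spread widely, and each lay above every oxygen library, a condition by which these falls were chosen. Hsph1, which encodes a large heat shock protein (chromosome 5, 150419420 to 150438890), had 16.4, 27.2 and 15.1 RPKM in the oxygen lungs, against 155, 225 and 211 RPKM in the room-air lungs (−3.33 ± 0.35, adjusted p = 7.23e-06). Hspa1b, an inducible HSP70 gene whose reads may be shared with its near-identical neighbour Hspa1a, had 10.4, 12.6 and 9.24 RPKM under oxygen against 93.5, 110.1 and 71.1 in room air (−3.02 ± 0.55). Kcnj13, an inward-rectifier potassium channel gene, had 1.37, 0.640 and 0.591 RPKM under oxygen against 12.4, 13.5 and 12.4 in room air (−3.32 ± 0.18). Wnt3a, which encodes a secreted ligand of the WNT pathway, had 0.546, 0.454 and 0.328 RPKM under oxygen against 7.44, 8.08 and 7.43 in room air (−3.12 ± 0.15), with all oxygen libraries at about 0.5 RPKM or less. Hist2h3c1, a histone H3 gene with near-identical copies in the genome, had 0.201, 0.720 and 0.262 RPKM under oxygen against 7.49, 8.39 and 7.62 in room air (−3.26 ± 0.19). The last 3 of the 12 were Fabp1, a fatty acid binding protein gene (−3.02), Aplnr, the apelin receptor gene (−2.82), and Fpr1, the formyl peptide receptor gene of neutrophils (−2.82).

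By difference in mean RPKM, the called genes with the largest gains were mostly iron and stress genes, and the largest losses included secretory products. Ftl1, the light chain of the iron store ferritin, averaged 6294 ± 483 RPKM in the oxygen lungs and 2814 ± 575 RPKM in the room-air lungs (SD, n = 3 each, as in the next averages). Fth1, the heavy chain, averaged 4925 ± 79.3 RPKM under oxygen and 3210.1 ± 522 RPKM in room air. Nupr1, a small chromatin protein of the stress response, averaged 2785 ± 436 RPKM under oxygen and 295 ± 28.01 RPKM in room air (3.23 ± 0.14, adjusted p = 1.04e-08). Actg1, a cytoskeletal actin gene, averaged 2789 ± 84.9 RPKM under oxygen and 1097 ± 74 RPKM in room air. On the losing side stood Scgb1a1, the secretoglobin that club cells pour into the airway (chromosome 19, 9158132 to 9162446). It took 4.53%, 3.97% and 4.63% of the summed RPKM in the oxygen libraries, against 17.4%, 22.8% and 17.7% in the room-air libraries. Summed RPKM differed as well, at 541094 to 550738 under oxygen and 587187 to 678396 in room air. The other large losses were Sftpc and 4 more. Lyz2, lysozyme, had 2209.8, 1873 and 1950.5 RPKM under oxygen against 5085, 7338 and 9499 in room air. Cbr2, a carbonyl reductase of club cells, had 2302, 2003 and 2485 RPKM under oxygen against 4251, 5790.1 and 4554 in room air. Cyp2f2, a club cell cytochrome P450, had 516, 477 and 486 RPKM under oxygen against 2363, 2984 and 2139 in room air. Beta-s, a haemoglobin beta chain entry whose reads may be shared with the other beta globin genes, had 1384, 1928 and 1926 RPKM under oxygen against 3885, 5648 and 2579 in room air.

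Lists of known genes, drawn up for stress programmes, metabolism, cell types and signalling, place single genes in groups. The lists were written with earlier results of these data known. Their counts, medians and ranks therefore partly reflect the choice of members and are not a test. Members named beyond the leading ones of a list were chosen after their values were seen. Each count below reads against 25.3% higher and 34.2% lower over all genes, and each median against −0.08. In the plot of all 57 lists the injured epithelium, cold-inducible, ATF4 and glucocorticoid lists had the highest medians, and the cardiac, erythroid, heat shock and neutrophil lists the lowest. In whole lungs, fewer cells of a type and less RNA per cell cannot be told apart, which touches every list of cell markers.

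**Figure D2:**
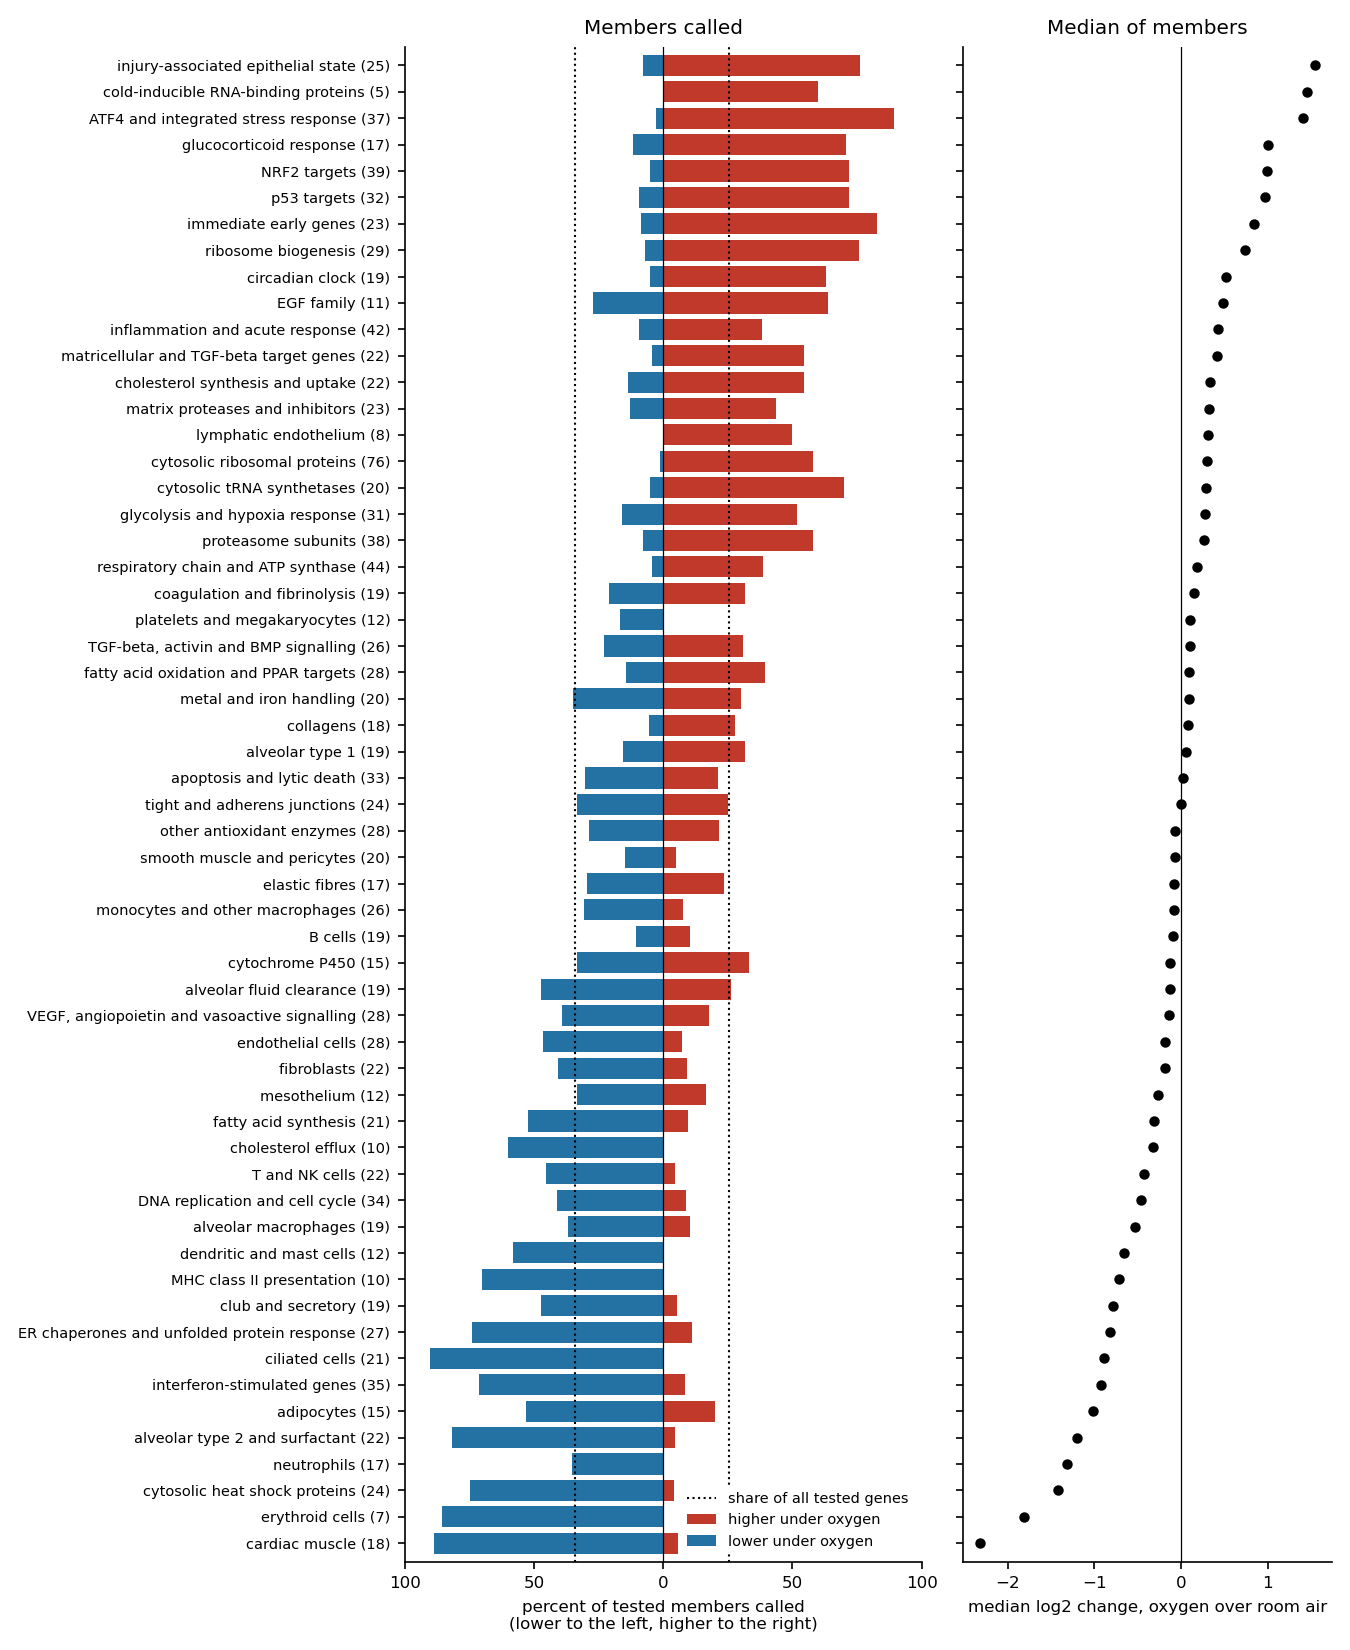
Left, percent of each list's tested members (number in brackets) called lower (bars to the left) or higher (bars to the right) under oxygen on the 10% fat diet, with dotted lines at the shares of all tested genes, 34.2% and 25.3%; right, the median log2 change of the members. Lists are ordered by their median, with the injury-associated epithelial state at 1.55 on top and cardiac muscle at −2.33 at the bottom.

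The integrated stress response was the list with the largest share of members called higher. Of 37 tested genes 33 were higher and 1 lower, with a median log2 change of 1.41, and their summed level was 5008, 5904 and 4743 RPKM in the oxygen lungs, against 1155, 1169 and 1184 RPKM in the room-air lungs. Atf4 itself had 361, 406 and 345 RPKM in the oxygen lungs, against 153, 138 and 139.9 RPKM in the room-air lungs (1.37 ± 0.12), a rise in the RNA of a factor that is otherwise regulated through its translation. The amino acid carriers moved as a block. Slc7a5, which with its partner Slc3a2 brings in leucine and other large neutral amino acids, had 26.2, 25.1 and 27.7 RPKM under oxygen against 2.79, 3.88 and 3.80 in room air (2.76 ± 0.12, adjusted p = 1e-08). Slc3a2 had 404, 469 and 415 RPKM under oxygen against 141, 129 and 142 in room air (1.64 ± 0.13). Slc7a11, the cystine carrier that supplies glutathione synthesis, had 13.2, 15.6 and 16.1 RPKM under oxygen against 0.678, 0.853 and 2.70 in room air (3.16 ± 0.31). Slc7a1, an arginine and lysine carrier, had 20.2, 22.3 and 21.5 RPKM under oxygen against 5.89, 5.64 and 6.02 in room air (1.78 ± 0.07). No oxygen value of these carriers fell within its room-air range. Enzymes of serine and one-carbon synthesis rose too, with Psat1 at 2.42 ± 0.11, Phgdh at 1.68 ± 0.21, Mthfd2 at 2.75 ± 0.18 and Shmt2 at 1.17 ± 0.10. Asns, asparagine synthetase, had 82.8, 95.8 and 77.1 RPKM under oxygen against 16.6, 21.7 and 25.2 in room air (1.998 ± 0.16). Trib3, a pseudokinase that restrains ATF4, stood at 3.23 ± 0.14, Chac1, which degrades glutathione, at 2.21 ± 0.16, and Ppp1r15a, which restores translation, at 1.69 ± 0.15. Cebpg, a binding partner of ATF4, was the 1 member called lower (−0.68 ± 0.12). Ddit3, the CHOP gene, was not called (0.10 ± 0.16, adjusted p = 0.632).

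Promoter sequence was at hand for 31 of these 37 genes, as RefSeq windows in build GRCm38.p6 of 250 bases before to 50 bases after the start of the gene. The C/EBP-ATF response element, searched as TGATGNAA on both strands, was found in 9 of the 31, and all 9 were called higher: Pycr1, Pck2, Vldlr, Asns, Chac1, Atf3, Slc7a11, Nupr1 and Trib3. Of all 31, with or without the element, 27 were called higher. The element was found in 2.84% of the 9916 tested genes with such a window. A match describes these letters and is not a bound site. The windows of Asns (chr6:7693160-7693459, minus strand) and Slc7a11 (chr3:50443564-50443863, minus strand) are shown, 5′ to 3′, because they carry the element in its single and its paired form, with the matches in capitals; the second match of Slc7a11 lies on the opposite strand.
Asns: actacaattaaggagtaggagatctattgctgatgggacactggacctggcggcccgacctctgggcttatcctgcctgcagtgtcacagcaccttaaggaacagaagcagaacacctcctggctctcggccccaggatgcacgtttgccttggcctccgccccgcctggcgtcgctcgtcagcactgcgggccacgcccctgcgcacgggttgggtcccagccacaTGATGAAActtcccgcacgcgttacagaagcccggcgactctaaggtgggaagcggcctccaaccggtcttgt
Slc7a11: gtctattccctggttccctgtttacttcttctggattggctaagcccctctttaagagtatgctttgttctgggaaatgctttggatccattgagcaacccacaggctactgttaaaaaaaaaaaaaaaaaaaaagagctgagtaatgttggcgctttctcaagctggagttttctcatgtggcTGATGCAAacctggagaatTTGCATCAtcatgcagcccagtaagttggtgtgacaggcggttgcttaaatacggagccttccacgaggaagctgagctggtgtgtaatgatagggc

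Cytosolic aminoacyl-tRNA synthetases, which load amino acids onto tRNA, followed at a smaller size: 14 of 20 were higher and 1 lower, with a median of 0.28. The seryl enzyme Sars led with 82.9, 92.99 and 78.2 RPKM in the oxygen lungs, against 25, 27.6 and 29.99 RPKM in the room-air lungs (1.604 ± 0.09, adjusted p = 6.54e-08), followed by Gars (1.07 ± 0.08) and Eprs (1.07 ± 0.08). Wars, the tryptophanyl enzyme and the member best known as induced by interferon, was the 1 called lower (−0.34 ± 0.08).

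Targets of p53 had 23 of 32 members higher and 3 lower, with a median of 0.97. The cell cycle inhibitor Cdkn1a (p21) had 503, 478 and 591 RPKM in the oxygen lungs, against 125, 94.6 and 103 RPKM in the room-air lungs (2.28 ± 0.24, adjusted p = 8.83e-06). Gadd45a, a growth arrest gene, had 123, 161 and 128 RPKM under oxygen against 12.04, 11.7 and 14.2 in room air (3.38 ± 0.14). Mdm2, whose product degrades p53, had 59.2, 55.7 and 54.6 RPKM under oxygen against 26.02, 24.2 and 24.9 in room air (1.16 ± 0.07). Groups were apart in all of these. The arrest and feedback genes Ccng1 (1.51), Sesn1 (1.99), Plk2 (1.72), Zmat3 (1.35) and Phlda3 (1.44) rose, and so did the death genes Bax (1.43), Perp (1.84), Eda2r (1.63) and Fas (0.78). Pmaip1 and Bbc3, which encode the killer proteins NOXA and PUMA, rose less (0.62 ± 0.20, unsteady and 0.33 ± 0.09). DNA repair genes did not share one direction: Polk was at 0.78 ± 0.16, Xpc at 0.14 ± 0.09, unsteady (adjusted p = 0.225) and Rrm2b, a subunit of ribonucleotide reductase, at −0.59 ± 0.12. Rrm2b, Fdxr (−0.64) and Btg2 (−0.50) were the 3 that fell.

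Genes of apoptosis and lytic death went both ways, with 7 higher and 10 lower of 33 and a median of 0.02, which is near the background shares. The largest rise was that of a survival gene, Bcl2l1, which encodes BCL-XL: 258, 250.0 and 273 RPKM in the oxygen lungs, against 61.9, 56.01 and 45.7 RPKM in the room-air lungs (2.26 ± 0.12, adjusted p = 7.29e-08). Bax, the pore former that BCL-XL restrains, had 176, 169.6 and 143 RPKM under oxygen against 57.1, 60.2 and 62.8 in room air. The other survival gene Mcl1 was not called (0.04 ± 0.09, adjusted p = 0.733). Among the caspases, Casp9 (−0.59) and Casp6 (−0.56) fell, and Casp8 was at −0.23 ± 0.10, unsteady (adjusted p = 0.0576). The inflammasome genes Nlrp3 (−0.70, unsteady), Pycard (−0.73) and Casp1 (−0.81) fell, whereas Mlkl, the pore former of necroptosis, rose (0.66 ± 0.19).

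Targets of NRF2 had 28 of 39 members higher and 2 lower, with a median of 0.99. Nqo1, a quinone reductase and the standard reporter of NRF2, had 32.4, 31.2 and 33.3 RPKM in the oxygen lungs, against 5.04, 5.40 and 3.96 RPKM in the room-air lungs (2.64 ± 0.11, adjusted p = 1e-08). Txnrd1, cytosolic thioredoxin reductase, had 192, 197 and 219 RPKM under oxygen against 36.4, 37.9 and 46.8 in room air (2.32 ± 0.11). Srxn1, which repairs overoxidised peroxiredoxins, was at 2.95 ± 0.16. Both subunits of the enzyme that limits glutathione synthesis rose, Gclc (2.53 ± 0.15) and Gclm (2.10 ± 0.10), together with glutathione reductase Gsr (1.04 ± 0.16) and the glutathione peroxidase Gpx2 (2.33 ± 0.17). Hmox1, which breaks down haem, had 99.6, 109 and 115 RPKM under oxygen against 31.4, 36.8 and 58.7 in room air (1.39 ± 0.19, adjusted p = 5.45e-05). Of the NADPH-making enzymes, Pgd (1.39 ± 0.11), Taldo1 (0.82 ± 0.08) and Me1 (0.63 ± 0.08) rose, and G6pdx, at the head of the pentose phosphate path, was not called (0.05 ± 0.12, adjusted p = 0.761). Nfe2l2, the gene of NRF2, had 73.2, 83.3 and 68.99 RPKM under oxygen against 137, 138 and 153 in room air and fell (−0.92 ± 0.11), as did Gstm2 (−0.31, unsteady). Keap1, its repressor, was at 0.10 ± 0.07 (adjusted p = 0.281). The antioxidant response element, searched as TGACNNNGC, was in 11 of the 33 members with a window, and in 17.3% of all tested genes with one.

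Antioxidant enzymes outside the NRF2 list did not join: 6 of 28 were higher and 8 lower, with a median of −0.07. The superoxide dismutases Sod1 and Sod2 were not called (−0.05 ± 0.11, adjusted p = 0.717; −0.01 ± 0.13, adjusted p = 0.944), and Sod3, the extracellular form, fell (−0.37 ± 0.11, unsteady). Cat, the catalase gene, had 88.7, 97.1 and 79.9 RPKM in the oxygen lungs, against 158, 168 and 145 RPKM in the room-air lungs (−0.82 ± 0.09), lower in all 3 oxygen lungs. Pon1, a paraoxonase, fell the furthest of the list (−2.15 ± 0.12), and Ucp2, a mitochondrial uncoupling protein, rose the furthest (1.08 ± 0.11).

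Metal and iron genes split into 6 higher and 7 lower of 20. Beside the metallothioneins and ferritins, the zinc carrier Slc39a14 (1.51 ± 0.14) and the iron exporter Slc40a1 (1.06 ± 0.30) rose. Alas1, which starts haem synthesis, fell (−1.58 ± 0.12), as did Hamp, the iron hormone hepcidin (−1.36 ± 0.49, unsteady), and Mtf1, the factor that senses zinc and drives metallothioneins (−0.34 ± 0.10, unsteady). The core of the metal response element, TGCNCNC, occurred 6 times in the window of Mt2 and 3 times in that of Mt1, but 64.1% of all tested genes with a window hold at least 1.

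Heat shock genes were lower, on the other side of 0 from the ATF4, p53 and NRF2 lists. Of 24 cytosolic heat shock proteins and their partners 18 were lower and 1 higher (Hspb8, 0.54, unsteady), with a median of −1.43. Their summed level was 2759, 2994 and 2644 RPKM in the oxygen lungs, against 6167, 8251 and 8205 RPKM in the room-air lungs. The constitutive chaperone Hspa8 had 491, 579.7 and 462 RPKM in the oxygen lungs, against 1941, 2677 and 2652 RPKM in the room-air lungs (−2.24 ± 0.23, adjusted p = 5.9e-06). Chordc1, an HSP90 partner, had 12.01, 15.96 and 11.6 RPKM under oxygen against 74.3, 84.7 and 81.1 in room air (−2.57 ± 0.14). Dnaja1, a J-domain partner of HSP70, had 23.5, 27.5 and 24.2 RPKM under oxygen against 142, 165 and 152 in room air (−2.59 ± 0.19). Fkbp4, an HSP90 co-chaperone of steroid receptors, was at −2.03 ± 0.18. Hsp90ab1 (−1.33 ± 0.17) and Hsp90aa1 (−0.83 ± 0.23) fell as well. Hsf1, the factor that drives them, was not called (−0.14 ± 0.09, unsteady, adjusted p = 0.194). Room-air lungs themselves differed here. On 60% fat Hspa1b stood at 10.2, 19.3 and 10.7 RPKM under oxygen and at 19.6, 133 and 22.6 RPKM in room air, so all room-air libraries of that diet but replicate 2 lay below the 10% fat ones. On the 60% fat diet the list had 1 higher and 14 lower, with a median of −0.55. Over all tested genes on that diet 26.3% were higher and 36.5% lower, with a median of −0.09.

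The heat shock element, searched as the blocks GAA, TTC and GAA set 2 bases apart, on both strands, was in 4 of the 19 members with a window, all of them called lower (Hsph1, Chordc1, Hspe1 and Hspd1), and in 0.54% of all tested genes with one. Of all 19, with or without the element, 15 were called lower. Chordc1 is shown because its 3 overlapping matches form one block at the start site (chr9:18292017-18292316, plus strand, GRCm38.p6; matches in capitals).
Chordc1: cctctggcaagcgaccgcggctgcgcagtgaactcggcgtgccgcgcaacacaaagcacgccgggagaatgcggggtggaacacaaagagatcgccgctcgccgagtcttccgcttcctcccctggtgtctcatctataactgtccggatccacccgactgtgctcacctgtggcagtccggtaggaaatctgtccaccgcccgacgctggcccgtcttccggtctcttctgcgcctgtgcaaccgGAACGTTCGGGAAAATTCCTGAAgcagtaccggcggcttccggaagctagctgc

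Chaperones of the endoplasmic reticulum fell alongside, with 20 of 27 lower, 3 higher and a median of −0.82. Hsp90b1 had 194, 195 and 183 RPKM in the oxygen lungs, against 413, 506 and 549.5 RPKM in the room-air lungs (−1.35 ± 0.10, adjusted p = 4.48e-07). The disulfide isomerase Pdia4 had 25.8, 26.5 and 22.4 RPKM under oxygen against 71.8, 89.8 and 107 in room air (−1.81 ± 0.13). Calreticulin, Calr, had 158, 154 and 140.4 RPKM under oxygen against 326, 345 and 409.9 in room air (−1.25 ± 0.09). Hspa5, the central sensor and chaperone BiP, fell less (−0.69 ± 0.17). Groups did not overlap in 22 of the 27, beside 67.5% of all tested genes. The 3 called higher were Atf6 (0.79), a membrane-bound regulator, Herpud1 (0.56) and Ero1l (0.40). ATF4 targets and these chaperones are both arms of the response to unfolded protein, and here they stood on opposite sides of 0.

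Of 5 RNA-binding genes known to be induced by mild cold, 3 were higher and none lower. Rbm3 had 499, 481 and 525 RPKM in the oxygen lungs, against 94.1, 77.1 and 83.5 RPKM in the room-air lungs (2.56 ± 0.08, adjusted p = 1.77e-09). Cirbp had 124, 102 and 129 RPKM under oxygen against 24.8, 17.5 and 15.1 in room air (2.62 ± 0.17). Srsf5 was at 1.46 ± 0.16. The summed level of the 5 was 1157, 1100 and 1260 RPKM in the oxygen lungs, against 445.3, 367 and 363 RPKM in the room-air lungs. On the 60% fat diet it was 1124, 1063 and 1131 RPKM under oxygen and 478, 367 and 439 RPKM in room air.

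**Figure D3:**
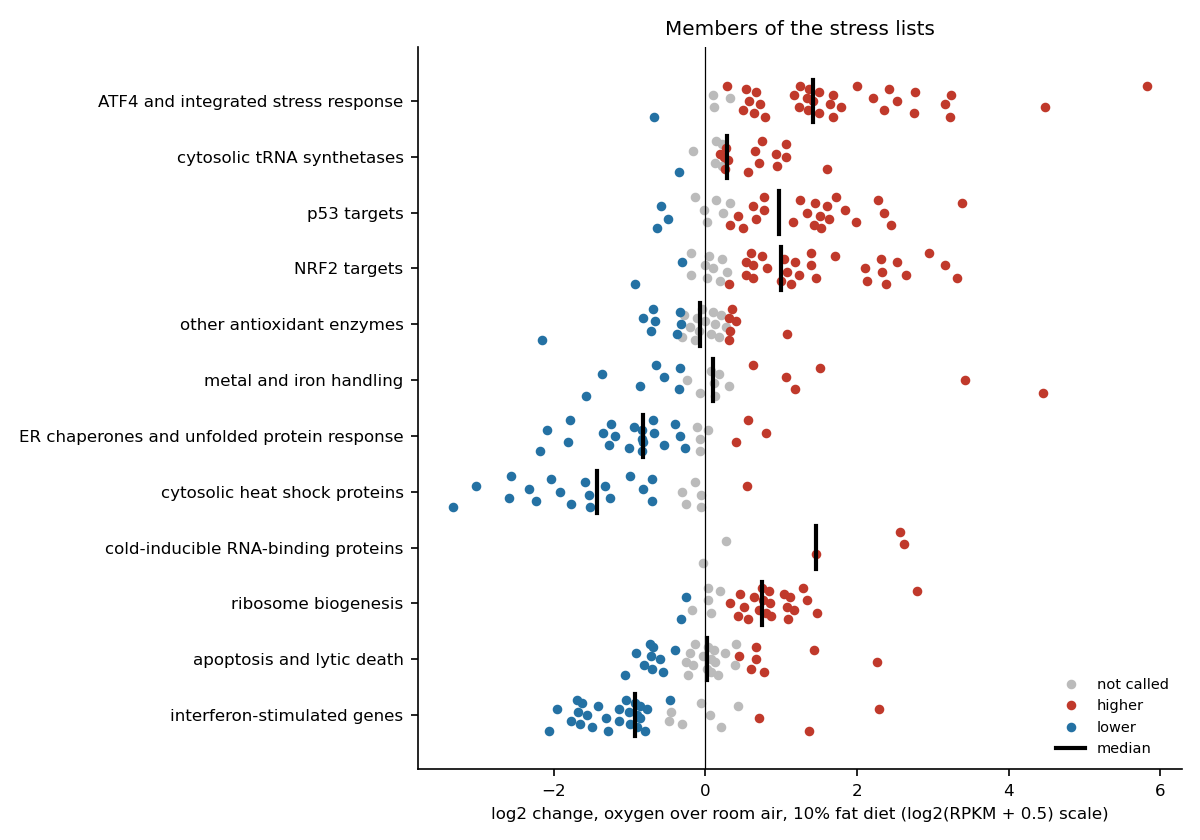
Log2 change of each tested member of 12 lists under oxygen on the 10% fat diet, on the log2(RPKM + 0.5) scale; red dots were called higher, blue lower, grey not called, and black bars are list medians. ATF4, p53 and NRF2 members spread to the right (medians 1.41, 0.97 and 0.99), heat shock and interferon-stimulated members to the left (−1.43 and −0.92), and the other antioxidant enzymes sit around 0.

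**Figure D4:**
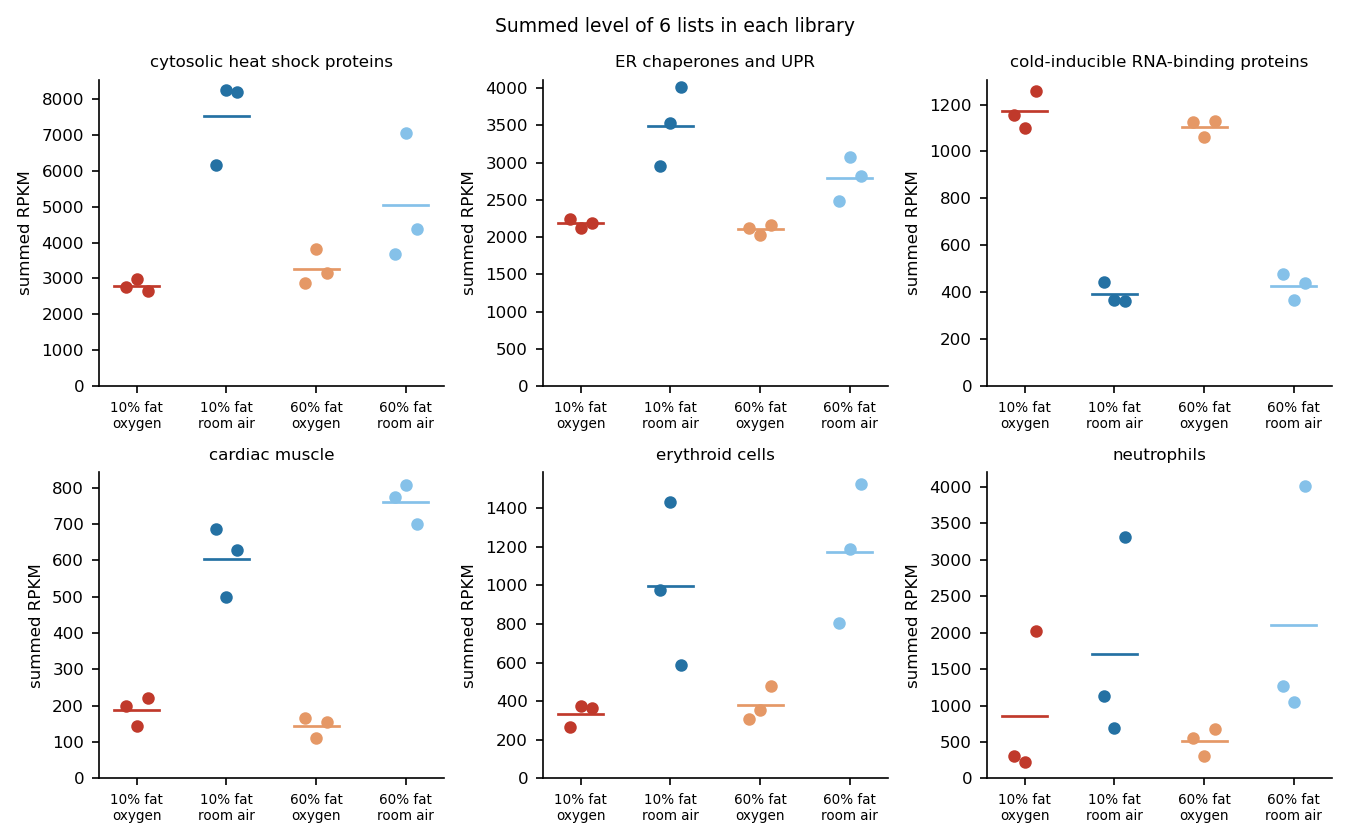
Summed RPKM of the members of 6 lists in each of the 12 libraries, with group means as lines, the 10% fat diet on the left of each panel and oxygen left of room air; axes start at 0. On the 10% fat diet the heat shock, ER chaperone, cardiac and erythroid sums of the 3 oxygen libraries lie below every room-air library, the cold-inducible sums lie above, and the neutrophil sums overlap.

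Genes that build ribosomes rose, and genes of DNA replication did not. Of 29 ribosome biogenesis genes 22 were higher and 2 lower (Bop1, −0.33, unsteady, and Heatr1, −0.26, unsteady), with a median of 0.74. Myc, which drives many of them, had 36.3, 45.2 and 42.5 RPKM in the oxygen lungs, against 4.85, 5.39 and 6.36 RPKM in the room-air lungs (2.80 ± 0.14, adjusted p = 3.31e-08). The nucleolar genes Ncl (1.16 ± 0.08), Nop58 (1.11 ± 0.07), Gnl3 (1.47 ± 0.08) and Npm1 (0.86 ± 0.08) rose with it. Ribosomal protein genes moved less but in 1 direction: 44 of 76 were higher and 1 lower (Rpl30, −1.09 ± 0.34, unsteady), with a median of 0.31 that was 0.16 after quantile normalization, where 33 were higher. Their largest rises were Rps2 (0.88 ± 0.10), Rpl12 (0.78 ± 0.12) and Rpsa (0.67 ± 0.09). These short genes have many processed pseudogenes, and reads may be shared with them. Of 38 proteasome subunits 22 were higher and 3 lower (median 0.26). The 3 lower ones were Psme1 (−0.28), Psme2 (−0.78) and Psmd10 (−0.54), of which the first pair forms the interferon-induced activator, while Psmd8, a regulatory subunit, led the rises (1.34 ± 0.08). Of 44 subunits of the respiratory chain and ATP synthase 17 were higher and 2 lower, Ndufb3 (−0.43) and Ndufs8 (−0.35, unsteady), with a median of 0.19. After quantile normalization the respiratory genes were 10 higher and 5 lower (median 0.05).

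The replication and cell cycle list had 3 higher and 14 lower of 34, with a median of −0.47. The share called lower was not far from that of all genes. After quantile normalization 4 were higher and 8 lower, with a median of −0.17. Mki67, the proliferation marker, had 1.67, 0.871 and 1.09 RPKM in the oxygen lungs, against 2.74, 2.37 and 3.25 RPKM in the room-air lungs (−0.96 ± 0.27, adjusted p = 0.00915), and the mitotic kinase gene Bub1 was at −1.19 ± 0.16. Of the D-type cyclins, which start the cycle, Ccnd2 had 19.1, 17.6 and 15.5 RPKM under oxygen against 36.4, 35.3 and 35.9 in room air (−1.03 ± 0.10). Ccnd3 had 57.3, 58.8 and 51.6 RPKM under oxygen against 86.6, 88.6 and 99.1 in room air (−0.70 ± 0.10), and so both were lower. Ccnd1 had 93.5, 97.2 and 84.9 RPKM under oxygen against 78.8, 77.5 and 74.2 in room air and rose (0.25 ± 0.08, unsteady), with Rrm1 (0.44, unsteady) and Cdt1 (0.80). Pcna, the replication clamp and also a p53 target, was not called (0.08 ± 0.07, adjusted p = 0.303).

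Genes of glycolysis and of the hypoxia response had 16 of 31 members higher and 5 lower, a median of 0.28. Slc2a1, the glucose carrier GLUT1, had 48.5, 51.6 and 51.9 RPKM in the oxygen lungs, against 15.7, 17.7 and 19 RPKM in the room-air lungs (1.51 ± 0.10, adjusted p = 1.76e-07). Hif1a had 68.3, 67.3 and 74.6 RPKM under oxygen against 23.97, 20.4 and 28.4 in room air (1.52 ± 0.13). Adm, the adrenomedullin gene, had 47.2, 47.2 and 57.4 RPKM under oxygen against 7.55, 5.002 and 9.88 in room air (2.72 ± 0.24). Not every target of the hypoxia factors rose. Vegfa (−0.17 ± 0.10, unsteady, adjusted p = 0.136) and Ldha (−0.23 ± 0.12, unsteady, adjusted p = 0.0985) were not called, and P4ha1, a collagen-modifying enzyme, fell (−1.79 ± 0.17).

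Among the epithelial lists, type 2 cell and surfactant genes were mostly lower and genes of the injury-associated state mostly higher. Whole-lung RNA does not show in which cells these genes changed. Of 22 type 2 markers 18 were lower and 1 higher (the cathepsin gene Ctsh, 0.65), with a median of −1.20, and the summed level was 21672, 17028 and 19844 RPKM in the oxygen lungs, against 32992, 45477 and 48233 RPKM in the room-air lungs. Slc34a2, the phosphate carrier of type 2 cells, had 178, 117 and 107 RPKM in the oxygen lungs, against 552, 611 and 706 RPKM in the room-air lungs (−2.24 ± 0.22). Lpcat1, an enzyme that makes surfactant lipid, had 45.8, 39.7 and 32.4 RPKM under oxygen against 142, 142 and 149 in room air (−1.88 ± 0.11, adjusted p = 1.13e-07). Abca3, which loads that lipid into lamellar bodies, was at −1.198 ± 0.13. The lineage regulators Nkx2-1 (42.8, 36.9 and 33.8 RPKM under oxygen against 109, 124 and 115 in room air, −1.61 ± 0.10), Cebpa (−0.95 ± 0.09) and Foxa2 (−0.54 ± 0.11) all fell. Sftpc fell by 1.02 on the log2 scale, unsteady (SE 0.22, adjusted p = 0.00172), Sftpa1 was at −1.49 ± 0.17 and Sftpd at −0.78 ± 0.24, unsteady. Sftpb was not called, with 1939.7, 1597 and 1854 RPKM under oxygen against 1721, 2054 and 1903 in room air (−0.08 ± 0.19, adjusted p = 0.753). The calls of Scgb1a1 and Sftpc were lost under quantile normalization, which gives the top ranks of every library equal values. The call of Sftpc was also lost with no filter on low values (adjusted p = 0.0721).

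Type 1 markers showed no common direction, with 6 higher and 3 lower of 19 and a median of 0.05, close to the background. Ager, the most abundant, was not called (−0.13 ± 0.15, adjusted p = 0.464), nor were Hopx (0.11 ± 0.12, adjusted p = 0.467) and Aqp5 (0.36 ± 0.16, unsteady, adjusted p = 0.0641). Rtkn2 fell furthest (14.7, 18.8 and 11.01 RPKM under oxygen against 78.5, 85.7 and 69.1 in room air, −2.38 ± 0.19), beside Emp2 (−0.38) and Clic5 (−0.33). Timp3, an inhibitor of matrix proteases that other lung cells express as well, rose furthest (914, 960.3 and 993 RPKM under oxygen against 296, 248 and 263 in room air, 1.83 ± 0.09).

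Genes of the injury-associated epithelial state had 19 of 25 members higher and 2 lower, and the highest median of all lists, 1.55. Prss22, given above among the largest rises, is a member, and the members were chosen with earlier results known. Krt8, of the keratin pair of simple epithelia (chromosome 15, 101827142 to 101834773), had 744, 658 and 819 RPKM in the oxygen lungs, against 150.3, 195 and 173 RPKM in the room-air lungs (2.10 ± 0.14, adjusted p = 2.05e-07). Its partner Krt18 had 453, 424 and 504 RPKM under oxygen against 85.8, 109.5 and 102 in room air (2.21 ± 0.13). Neither pair of groups overlapped. Krt19 had 634, 535 and 606 RPKM under oxygen against 159, 195 and 169 in room air (1.76 ± 0.14). Krt7 had 659, 598 and 652 RPKM under oxygen against 285, 374 and 333 in room air and rose too (0.95 ± 0.14). So did Tnfrsf12a, the TWEAK receptor gene (3.31 ± 0.22), Lgals3, a galectin (1.97 ± 0.24), and Itgb6, a subunit of an integrin that activates TGF-beta (0.77 ± 0.09). Cst3 (−0.56) and Clu (−0.34, unsteady) fell.

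Among airway markers, more secretory and ciliary genes were lower than higher. Of 19 club and secretory markers 9 were lower and 1 higher, with a median of −0.79. Scgb1a1 had 24944, 21471 and 25154 RPKM in the oxygen lungs, against 101902, 154812 and 112000.0 RPKM in the room-air lungs (−2.35 ± 0.27, unsteady, adjusted p = 1.72e-05). Cyp2f2, which activates inhaled toxicants in club cells, was at −2.32 ± 0.15. Scgb3a2 (−1.97 ± 0.21), Hp, haptoglobin (−2.08 ± 0.21), and the claudin gene Cldn10 (−2.80 ± 0.20) fell too, whereas Aldh1a1 (−0.17 ± 0.10, unsteady, adjusted p = 0.172) and Scgb3a1 (−0.60 ± 0.37, unsteady, adjusted p = 0.177) were not called. The 1 higher member was Reg3g, an antibacterial lectin (1.34 ± 0.52, unsteady). Of 21 ciliated cell markers 19 were lower and none higher, with a median of −0.89. Foxj1 fell (−0.98 ± 0.16, adjusted p = 0.0002). Tppp3, a tubulin-binding protein, had 189, 179 and 179 RPKM under oxygen against 483, 612 and 438 in room air (−1.47 ± 0.13). The dynein arm gene Dnaic1 was at −1.33 ± 0.14. Their summed level was 401, 391 and 355 RPKM in the oxygen lungs, against 861, 1057 and 793 RPKM in the room-air lungs. Of 15 cytochrome P450 genes 5 were higher and 5 lower, with a median of −0.12. Cyp2a5 (1.56) and Cyp2b10 (0.98) rose most, and after Cyp2f2 the retinoic acid hydroxylase Cyp26b1 fell most (−2.20, unsteady).

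Junction genes stood at the background, 6 higher and 8 lower of 24 with a median of 0.00. Among the claudins named here Cldn4 rose and Cldn10 (6.57, 4.62 and 4.49 RPKM under oxygen against 35.2, 47.2 and 35.5 in room air) fell. Cldn18, the main claudin of the alveolus, had 279, 243 and 231 RPKM under oxygen against 252, 315 and 260.2 in room air and was not called (−0.13 ± 0.09, unsteady, adjusted p = 0.249). Tjp3, a tight junction scaffold gene, fell (−1.95 ± 0.15). Among genes of alveolar fluid clearance, 5 of 19 were higher and 9 lower. Scnn1a, the alpha subunit of the sodium channel that drives fluid absorption, rose (299, 264 and 280.3 RPKM under oxygen against 127, 134 and 123 in room air, 1.13 ± 0.07, adjusted p = 1.29e-07), and Scnn1b, the beta subunit, fell (−0.55 ± 0.14). Sgk1, the kinase that keeps that channel in the membrane, had 238, 211 and 261 RPKM under oxygen against 74.9, 59.1 and 98.1 in room air (1.63 ± 0.17). The sodium pump subunit gene Atp1b1 rose slightly (0.41 ± 0.12, unsteady), and the water channels Aqp1 (−0.67 ± 0.11) and Aqp4 (−1.62 ± 0.19) fell.

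Endothelial markers had 13 of 28 members lower and 2 higher (Gpihbp1, 0.40, unsteady, and Robo4, 0.47, unsteady), a median of −0.18. The general markers were not called: Pecam1 was at −0.12 ± 0.10, unsteady (adjusted p = 0.334) and Cdh5, VE-cadherin, at 0.29 ± 0.13, unsteady (adjusted p = 0.0802). Several receptor genes for vessel signals fell, though not all. Calcrl, the adrenomedullin receptor, had 44.2, 41.2 and 44.6 RPKM in the oxygen lungs, against 251, 168 and 177 RPKM in the room-air lungs (−2.16 ± 0.16, adjusted p = 6.01e-07), while its ligand genes Adm and Adm2 rose. Aplnr had 1.07, 1.11 and 0.984 RPKM under oxygen against 16.4, 8.87 and 7.72 in room air, and its ligand gene Apln fell too (−1.06 ± 0.25). Kdr, the main VEGF receptor, had 24.9, 28.2 and 29.8 RPKM under oxygen against 77.1, 43.5 and 41.7 in room air (−0.90 ± 0.22). Tek, the angiopoietin receptor, was at −0.66 ± 0.17, and Nos3, endothelial nitric oxide synthase, at −0.49 ± 0.18, unsteady. Sox18, an endothelial transcription factor, had 23.8, 23.1 and 12.4 RPKM under oxygen against 103, 77.4 and 86.3 in room air (−2.189 ± 0.23). The summed endothelial level was 2764, 3101 and 2974 RPKM in the oxygen lungs, against 4013, 2997 and 3089 RPKM in the room-air lungs, with room-air replicate 1 the highest. Genes of VEGF, angiopoietin and vasoactive signalling had 5 higher and 11 lower of 28, with a median of −0.14. The ligand genes Pgf (1.199) and Angptl4 (0.82) rose in that list. Of 8 lymphatic markers 4 were higher and none lower, led by Lyve1, a hyaluronan receptor of lymphatic vessels and some macrophages (1.84 ± 0.13), before Reln (0.54, unsteady), Mmrn1 (0.47) and Flt4 (0.40, unsteady).

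Of 19 clotting genes 6 were higher, a share near that of all genes, and 4 lower. Besides F3, the urokinase receptor gene Plaur had 167, 194 and 190.3 RPKM in the oxygen lungs, against 69.2, 55.7 and 63.1 RPKM in the room-air lungs (1.55 ± 0.15, adjusted p = 3.97e-06). Urokinase, Plau, was at 1.13 ± 0.13 and tissue activator Plat at 1.27 ± 0.17. Thbd, thrombomodulin, which turns thrombin to anticoagulant work, had 105, 114 and 119 RPKM under oxygen against 313, 224 and 244 in room air and fell (−1.197 ± 0.12), as did F10 (−1.501), Serpind1 (−0.55, unsteady) and Serpine2 (−0.25, unsteady). Tfpi, the inhibitor of tissue factor, was not called (0.23 ± 0.10, unsteady, adjusted p = 0.0681).

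Of 18 collagens 5 were higher, a share near that of all genes, and 1 lower, with a median of 0.08. Col4a1 had 375, 363 and 389.7 RPKM in the oxygen lungs, against 128, 98.2 and 111 RPKM in the room-air lungs (1.75 ± 0.09, adjusted p = 4.44e-08). Col4a2 had 302, 293 and 308 RPKM under oxygen against 113, 93.9 and 97.7 in room air (1.57 ± 0.08). Col6a1 (0.94), Col18a1 (0.85) and Col6a2 (0.47) rose and Col6a3 fell (−0.54). Col1a1 (−0.01 ± 0.17, adjusted p = 0.971), Col1a2 (−0.15 ± 0.14, adjusted p = 0.347) and Col3a1 (−0.04 ± 0.19, adjusted p = 0.882) were not called. Among elastic fibre genes (4 higher and 5 lower of 17), Eln, the elastin gene, had 149.6, 126 and 114 RPKM under oxygen against 49.98, 43.7 and 45.6 in room air (1.47 ± 0.11). Lox, which crosslinks elastin and collagen, had 63.7, 55.4 and 71.7 RPKM under oxygen against 24.8, 17.8 and 27.99 in room air (1.43 ± 0.14). Fbn1 (1.02) and Fbln2 (0.89) rose with them, and Ltbp3 (−0.54), Ltbp1 (−0.51), Fbln5 (−0.43), Emilin1 (−0.35, unsteady) and Efemp1 (−0.32, unsteady) fell. Matricellular and TGF-beta target genes had 12 higher and 1 lower (Plod2, −0.93) of 22 (median 0.41), led by Cyr61, Ankrd1 and Ctgf. Further rises were those of Tnc (1.15 ± 0.21), Thbs1 (1.06 ± 0.29) and the crosslinking enzyme Tgm2 (1.10 ± 0.09). The TEAD site, the element through which YAP acts, was searched as GGAATG on both strands. It was in 2 of the 9 members with a window, Ankrd1 and Amotl2, and in 14.99% of all tested genes with one. Of 23 proteases and inhibitors 10 were higher and 3 lower. Timp1 had 102, 99.5 and 75.5 RPKM under oxygen against 9.53, 13.1 and 21.96 in room air (2.67 ± 0.22). Adamts4, an aggrecan-cleaving protease, had 9.29, 8.54 and 16.7 RPKM under oxygen against 0.833, 0.679 and 1.02 in room air (3.11 ± 0.24). Mmp14 was at 1.09 ± 0.11, while Mmp11 (−1.62), Mmp15 (−0.99) and Adam17 (−0.85) fell. Fibroblast markers had 2 higher (Pdgfra, 0.43, unsteady, and Lum, 0.48, unsteady) and 9 lower of 22. The alveolar fibroblast regulator Tcf21 had 25.9, 28.7 and 25.7 RPKM under oxygen against 69.5, 57.8 and 58.3 in room air (−1.19 ± 0.10), and Inmt (−1.28 ± 0.18) and Npnt (−0.81 ± 0.13) fell too. Of 20 smooth muscle and pericyte genes 1 was higher (Tagln, 0.61, unsteady) and 3 were lower (Higd1b, −0.74, Hhip, −0.59, unsteady, and Kcnj8, −0.37, unsteady).

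Several signalling lists held more higher than lower members. Of 23 immediate early genes 19 were higher and 2 lower, with a median of 0.84. Egr1 had 56.3, 77.4 and 135 RPKM in the oxygen lungs, against 9.72, 5.91 and 7.91 RPKM in the room-air lungs (3.36 ± 0.34). Fosl1 had 3.44, 3.93 and 5.03 RPKM under oxygen against 0.0607, 0.0308 and 0.282 in room air (2.899 ± 0.17, adjusted p = 1.22e-07). Ier3, which restrains apoptosis, had 362, 278 and 408 RPKM under oxygen against 68.5, 70.6 and 87.8 in room air (2.191 ± 0.14). The nuclear receptors Nr4a2 (−1.45 ± 0.17) and Nr4a3 (−1.86 ± 0.36) were the 2 that fell, although their relative Nr4a1 rose (1.12 ± 0.28). Of 11 genes of the EGF family 7 were higher and 3 lower. Among the ligands of its receptor, Areg had 85.3, 101 and 94.5 RPKM in the oxygen lungs, against 7.97, 8.65 and 12 RPKM in the room-air lungs (3.25 ± 0.26), Ereg was at 2.33 ± 0.24 and Hbegf at 1.66 ± 0.12, while Btc fell (−1.17 ± 0.17). Nrg1, a ligand of ERBB3, rose (2.50 ± 0.17), and Erbb3 itself fell (−1.18 ± 0.12), as did Erbb2 (−0.59). Of 17 genes of the glucocorticoid response 12 were higher and 2 lower (median 1.004). Fkbp5, an HSP90 partner that dampens the receptor, had 90.9, 74.1 and 101 RPKM under oxygen against 13.4, 16.6 and 23.1 in room air (2.32 ± 0.30). Tsc22d3 (GILZ), another standard target, fell (−0.85 ± 0.20) and so did the receptor gene Nr3c1 (−0.33 ± 0.12, unsteady). Circadian clock genes had 12 of 19 higher and 1 lower (median 0.52). Per1 rose (1.203 ± 0.16), Per3 fell (−1.12 ± 0.16) and Cry1 rose (1.17 ± 0.15). Arntl (BMAL1) and Dbp were not called (0.34 ± 0.14, unsteady, adjusted p = 0.0513; 0.39 ± 0.37, adjusted p = 0.384). The sources used here do not give the hour at which the lungs were taken. Genes of TGF-beta, activin and BMP signalling were mixed (8 higher and 6 lower of 26). The activin antagonists Fst (1.14 ± 0.18) and Fstl3 (1.23 ± 0.11) rose and Tgfb1 fell (−0.52 ± 0.10).

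Inflammatory genes leaned to rises, without the neutrophil attractants. Of 42 tested, 16 were higher and 4 lower, with a median of 0.42. Il6, the inducer of the acute phase, had 5.29, 3.23 and 10.5 RPKM in the oxygen lungs, against 0.268, 0.349 and 1.57 RPKM in the room-air lungs (2.49 ± 0.44, adjusted p = 0.0004). Ccl2, a monocyte attractant, had 14.6, 18.04 and 22.2 RPKM under oxygen against 2.77, 2.193 and 7.74 in room air (2.15 ± 0.38). Lif, a cytokine of the IL-6 family, had 7.16, 6.33 and 6.46 RPKM under oxygen against 1.25, 0.800 and 1.66 in room air (2.07 ± 0.17). Ptgs2, cyclooxygenase-2, had 39.9, 50.7 and 53.6 RPKM under oxygen against 6.93, 9.54 and 10.6 in room air (2.36 ± 0.21). Icam1, the leukocyte adhesion molecule, had 494, 478 and 479 RPKM under oxygen against 219, 224 and 255 in room air (1.06 ± 0.08). Il1b, made by myeloid cells, had 3.21, 3.10 and 33.4 RPKM under oxygen against 22.8, 15.6 and 60.6 in room air and fell (−1.89 ± 0.70, unsteady), and Csf2, the gene of GM-CSF, fell as well (−1.76 ± 0.33), with the receptor genes Il1rl1 (−0.48, unsteady) and Il6ra (−0.35, unsteady). Tnf (0.30 ± 0.37, adjusted p = 0.508) and the neutrophil attractants Cxcl1 (0.94 ± 0.69, unsteady, adjusted p = 0.254), Cxcl2 (0.47 ± 0.65, adjusted p = 0.558) and Cxcl5 (−0.91 ± 0.71, unsteady, adjusted p = 0.288) were not called.

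Interferon-stimulated genes had 25 of 35 members lower and 3 higher, with a median of −0.92. Irf9, a part of the factor that carries the type I interferon signal, had 13.1, 12.9 and 8.90 RPKM in the oxygen lungs, against 32.1, 26.2 and 29.9 RPKM in the room-air lungs (−1.32 ± 0.13, adjusted p = 3.83e-06). Stat2, another part of it, fell too (−0.99 ± 0.15). The GTPase gene Igtp had 8.49, 7.90 and 6.78 RPKM under oxygen against 28.7, 22.8 and 23.5 in room air (−1.63 ± 0.12). Its relatives Ifi47 (−1.68 ± 0.12) and Gbp2 (−1.66 ± 0.19) fell, and so did the antiviral genes Isg15 (−1.28 ± 0.22), Oas1a (−1.57 ± 0.16) and Ifit1 (−0.76 ± 0.15). Ifit3, next to Ifit1 in family and function, went the other way, with 71.01, 82.9 and 54.8 RPKM under oxygen against 14.2, 15.3 and 11.6 in room air (2.29 ± 0.21, adjusted p = 2.64e-06). It has a close paralog with which reads may be shared. The chemokine Cxcl10 (1.37 ± 0.26) and Mx1 (0.70 ± 0.23, unsteady) were the other 2 called higher. The 3 immunoproteasome subunits Psmb8 (−0.80), Psmb9 (−1.003) and Psmb10 (−1.04) fell, against the direction of the standard proteasome. MHC class II genes had 7 of 10 lower and none higher. Their regulator Ciita had 2.40, 2.30 and 1.54 RPKM under oxygen against 8.94, 7.63 and 8.14 in room air (−1.77 ± 0.19). Cd74, the invariant chain, had 923, 800.1 and 691 RPKM under oxygen against 1199.7, 1473 and 1388 in room air (−0.75 ± 0.17), and H2-Ab1 was at −0.77 ± 0.14.

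The interferon-stimulated response element, searched as a pair of GAAA blocks set 2 bases apart, on both strands, was in 13 of the 28 listed genes with a window, and in 3.79% of all tested genes with one. Of the 13, 10 were called lower and 2 higher, Cxcl10 and Ifit3. Of all 28, with or without the element, 21 were called lower and 2 higher. Isg15 (chr4:156200769-156201068, minus strand) and Ifit3 (chr19:34583279-34583578, plus strand) are printed because both hold the element, in overlapping and in separate copies, and moved in opposite directions (GRCm38.p6, 5′ to 3′, matches in capitals).
Isg15: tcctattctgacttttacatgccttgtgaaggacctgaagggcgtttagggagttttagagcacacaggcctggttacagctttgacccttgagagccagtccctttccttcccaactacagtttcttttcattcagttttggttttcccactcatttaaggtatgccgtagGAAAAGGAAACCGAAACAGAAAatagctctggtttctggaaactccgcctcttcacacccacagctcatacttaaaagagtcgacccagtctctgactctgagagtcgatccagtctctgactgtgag
Ifit3: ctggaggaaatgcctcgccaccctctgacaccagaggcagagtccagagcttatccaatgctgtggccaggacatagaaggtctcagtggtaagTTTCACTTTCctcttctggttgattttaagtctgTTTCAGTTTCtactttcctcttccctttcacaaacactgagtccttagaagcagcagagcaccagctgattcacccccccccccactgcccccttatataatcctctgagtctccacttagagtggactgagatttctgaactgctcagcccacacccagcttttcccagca

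Of the leukocyte lists, neutrophils and both kinds of macrophages had shares called lower near the 34.2% of all genes, T and NK cells and dendritic and mast cells larger shares, and B cells a smaller one. The larger shares shrank under quantile normalization, to 6 of 22 for T and NK cells and 4 of 12 for dendritic and mast cells. Neutrophil markers had 6 of 17 lower and none higher (median −1.31). The 3 libraries of each exposure spread widely, and the most abundant members, S100a8 and S100a9, were not called. S100a9 had 56.5, 37.5 and 795 RPKM in the oxygen lungs, against 463, 209.8 and 1413 RPKM in the room-air lungs (−2.11 ± 1.01, unsteady, adjusted p = 0.0895). Without oxygen replicate 3, S100a9 was called lower (adjusted p = 0.0026), as it was with the replicate number as a block (adjusted p = 0.00418). The summed neutrophil level was 312, 229.9 and 2024 RPKM in the oxygen lungs, against 1126, 694 and 3312 RPKM in the room-air lungs, with replicate 3 the highest in both groups. On 60% fat replicate 3 was the highest too, at 682 RPKM under oxygen and 4014 RPKM in room air. The receptor genes Fpr1 (2.42, 1.79 and 3.54 RPKM under oxygen against 13.1, 22.3 and 29.998 in room air), Cxcr2 (−1.84 ± 0.58, unsteady) and Csf3r (−1.78 ± 0.70, unsteady) fell. Of 26 genes of monocytes and other macrophages 2 were higher (Ly6c1, 1.65, and the scavenger receptor Cd163, 1.26) and 8 lower. The monocyte genes Ccr2 (−1.75 ± 0.47) and Cx3cr1 (−1.22 ± 0.37, unsteady) fell. Ly6c2 had 5.86, 6.41 and 5.89 RPKM under oxygen against 23.3, 22.3 and 23.99 in room air (−1.86 ± 0.19). The growth factor receptor gene Csf1r had 26.4, 25.4 and 22.6 RPKM under oxygen against 49.3, 52.2 and 47.1 in room air (−0.99 ± 0.13). C1qa was not called (0.26 ± 0.22, adjusted p = 0.324). Alveolar macrophage markers had 2 higher (Lpl, 1.06, and Pparg, 0.62, unsteady) and 7 lower of 19. Siglec5 (3.15, 3.19 and 3.02 RPKM under oxygen against 8.11, 10.2 and 8.73 in room air, −1.39 ± 0.11) and Ear2 (−2.15 ± 0.23) fell. Their summed level was 1071, 948 and 905 RPKM in the oxygen lungs, against 936, 1454 and 6719 RPKM in the room-air lungs. Most of the last value came from Chi3l3, a chitinase-like protein, with 497, 376 and 354 RPKM under oxygen against 432, 803 and 5793 in room air (adjusted p = 0.112, and 0.0283 without room-air replicate 1).

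T and NK cell markers had 1 higher (Cd28, 0.44, unsteady) and 10 lower of 22 (median −0.43). Cd3g had 3.26, 2.85 and 2.18 RPKM under oxygen against 5.72, 5.46 and 6.68 in room air (−0.99 ± 0.15), and the NK receptor gene Ncr1 was at −1.42 ± 0.32. Quantile normalization left 3 higher and 6 lower. B cell markers had 2 higher and 2 lower of 19. Cd79b had 20.4, 25.97 and 17.9 RPKM under oxygen against 16.5, 10.9 and 11.3 in room air (0.72 ± 0.21, unsteady), Pax5 was at 0.80 ± 0.28, unsteady, Spib at −1.16 ± 0.23 and Ms4a1 at −0.70 ± 0.28, unsteady. Of 12 dendritic and mast cell genes 7 were lower and none higher, with Cd209a at −2.50 ± 0.29 and Kit at −1.34 ± 0.16. After quantile normalization 4 of the 12 were lower and 1 higher. Platelet genes had none higher and 2 lower of 12 (Itgb3, −0.88, and Nbeal2, −0.55).

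In lipid metabolism, the sterol and the fatty acid branch separated. Cholesterol synthesis and uptake had 12 of 22 genes higher and 3 lower, with a median of 0.34. Lss, lanosterol synthase, had 36.1, 33.6 and 36.6 RPKM in the oxygen lungs, against 8.35, 7.47 and 9.16 RPKM in the room-air lungs (2.03 ± 0.12, adjusted p = 1.33e-07). Sqle, squalene epoxidase, had 42.2, 38.6 and 41.5 RPKM under oxygen against 16.9, 18.2 and 20.5 in room air (1.12 ± 0.14), while Ebp (−0.55), Dhcr7 (−0.45, unsteady) and Tm7sf2 (−0.44, unsteady) fell. The sterol regulatory element, searched as TCACNCCAC, was in none of the 14 members with a window and in 1.33% of all tested genes with one. Cholesterol efflux genes had 6 of 10 lower and none higher. The exporter gene Abcg1 had 7.91, 7.59 and 7.36 RPKM under oxygen against 20.1, 21.4 and 26.1 in room air (−1.498 ± 0.12). Nr1h3, the gene of the sterol receptor LXR-alpha, was at −1.47 ± 0.14. Fatty acid synthesis had 2 higher and 11 lower of 21 (median −0.32). Acly, which makes cytosolic acetyl-CoA, had 39.3, 37.2 and 35.1 RPKM under oxygen against 75.2, 77.1 and 71.5 in room air (−0.99 ± 0.07). Elovl1, an elongase, had 74.1, 60.3 and 56.3 RPKM under oxygen against 154, 156 and 175 in room air (−1.35 ± 0.11). The citrate carrier Slc25a1 (0.43) and Me1 rose. Of 28 genes of fatty acid oxidation and PPAR targets 11 were higher and 4 lower. Plin2, which coats lipid droplets, had 317, 340.4 and 347 RPKM under oxygen against 79.7, 95.7 and 138 in room air (1.71 ± 0.15). Pdk4, which turns fuel use from glucose to fat, was at 1.18 ± 0.10 and Acadl, a dehydrogenase of long-chain fatty acids, at 0.93 ± 0.07, while Acadm (−0.65), Ucp3 (−0.65, unsteady), Acaa1a (−0.58) and Cpt2 (−0.44) fell.

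Cardiac muscle and erythroid markers were mostly lower under oxygen, adipocyte markers leaned lower with some rises, and mesothelial markers went both ways. Where in the samples these RNAs came from was not tested. Of 18 cardiac muscle genes 16 were lower and 1 higher, the regulator Tbx5, which lung mesenchyme expresses too (0.77 ± 0.18). The median was −2.33, and the summed level was 200, 143 and 221 RPKM in the oxygen lungs, against 685, 498 and 629 RPKM in the room-air lungs. Actc1, cardiac actin, had 15.4, 14.6 and 14.2 RPKM in the oxygen lungs, against 116, 62.1 and 98.2 RPKM in the room-air lungs (−2.56 ± 0.20, adjusted p = 9.8e-07). None of the 18 averaged 0 RPKM in either group. Of 7 erythroid genes 6 were lower (median −1.81). Hbb-b2 had 219, 313 and 297 RPKM under oxygen against 839, 1264 and 506 in room air (−1.57 ± 0.31). The 15 adipocyte genes had 3 higher (Cidea, 1.97, Lep, 1.38, and Pnpla2, 0.70) and 8 lower (median −1.02). Adipoq, the gene of the hormone adiponectin, had 3.81, 1.72 and 1.97 RPKM under oxygen against 4.17, 12.6 and 3.61 in room air (−1.14 ± 0.42, unsteady). Mesothelial genes had 2 higher (Krt19 and Gpm6a, 0.27, unsteady) and 4 lower (Nkain4, −0.75, Wt1, −0.67, unsteady, Lrrn4, −0.55, unsteady, and Rarres2, −0.43) of 12. The part of these tissues in the other results was not tested.

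The response on the 60% fat diet gives the measure of what belongs to the 10% fat diet. The 2 comparisons share no library, but their calls are not independent. They come from the same fit with a common variance, and same-numbered libraries of the 2 diets deviated together, as given below. On 60% fat 8370 of the 13324 genes were called, with 26.3% of those tested higher and 36.5% lower. Called in both diets were 6855 genes, of which 2874 were higher in both, 3974 lower in both and 7 opposite. With most genes called on each diet, many would be called in both even if the calls were unrelated. A further 1068 genes were called on 10% fat and not on 60% fat, which by itself shows no difference. The difference itself, 10% fat minus 60% fat in log2 change, was called in 5 of 13324 genes (0.0375%), with 1371 genes at an unadjusted p under 0.05. Within an exposure, same-numbered libraries of the 2 diets deviated together, with correlations of 0.29 to 0.49, against −0.30 to 0.01 for other numbers. With the number as a block within each exposure 243 genes were called (1.82%), all 5 of the genes below among them, and with the number as one block over all 12 libraries 17. The first of these blocks was chosen after seeing the data. Disp2, a relative of the Hedgehog-releasing protein DISP1, had 1.85, 2.60 and 1.62 RPKM under oxygen and 8.95, 7.16 and 11.1 RPKM in room air on 10% fat. On 60% fat it had 7.25, 6.62 and 4.38 RPKM under oxygen and 3.50, 4.19 and 2.67 RPKM in room air, so that it fell on the first diet and was higher under oxygen on the second (difference −2.65 ± 0.31, adjusted p = 0.0198). Mmp3, a matrix protease, rose less on 10% fat (1.08 ± 0.14) than on 60% fat (2.64 ± 0.14; difference −1.56 ± 0.20, adjusted p = 0.024). Lyve1 had 651, 711 and 756 RPKM under oxygen and 197, 171 and 228 RPKM in room air on 10% fat. On 60% fat it had 737, 722 and 779 RPKM under oxygen and 71.7, 99 and 88.5 RPKM in room air. Its oxygen levels lay side by side and its room-air levels differed (difference −1.28 ± 0.18, adjusted p = 0.0309). Slc7a1, given above for 10% fat, had 23.5, 23.8 and 24.4 RPKM under oxygen and 3.87, 3.68 and 4.03 RPKM in room air on 60% fat (difference −0.70 ± 0.10, adjusted p = 0.0483). Sult1a1, a phenol sulfotransferase, was higher under oxygen on 10% fat (0.51 ± 0.09) and lower on 60% fat (−0.44 ± 0.09; difference 0.94 ± 0.13, adjusted p = 0.0282). The next in order missed the threshold, among them Slc5a3, an inositol carrier (−1.08 ± 0.17, adjusted p = 0.0568). Without a block, the count rested on single libraries. It was 0 without 10% fat oxygen replicate 1 or 3, 10% fat room-air replicate 3, 60% fat oxygen replicate 1 or 2, or 60% fat room-air replicate 3, 1 without 60% fat oxygen replicate 3 and 2 without 10% fat room-air replicate 2. It was 41 without 10% fat room-air replicate 1 and 45 without 60% fat room-air replicate 2, the library of that group with the high heat shock level.

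**Figure D5:**
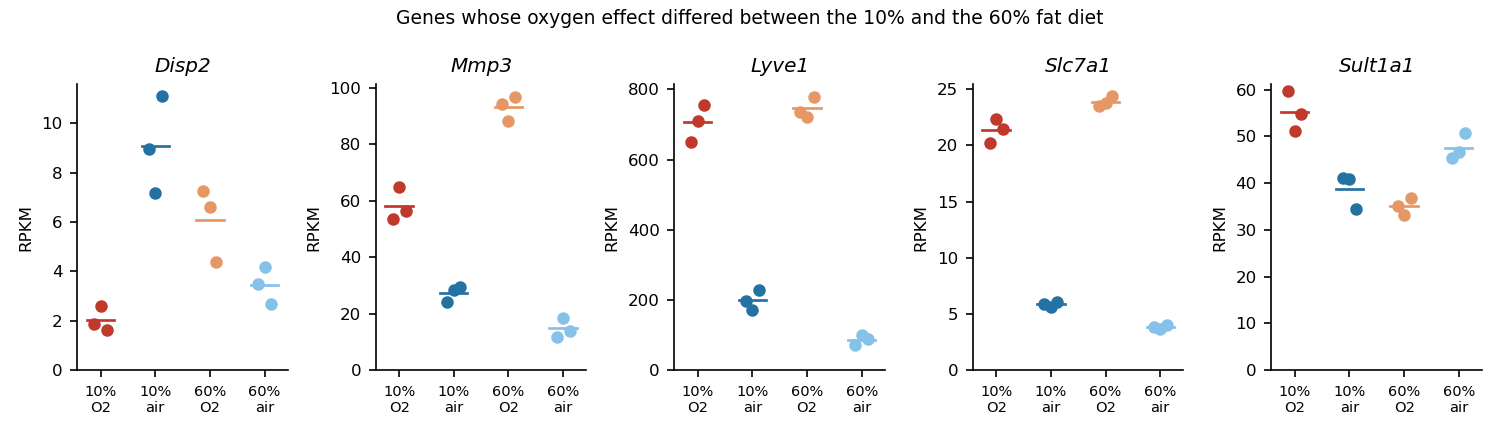
RPKM of the 5 genes whose oxygen effect differed between the diets, in all 12 libraries (O2, more than 95% oxygen; air, room air; 10% and 60%, fat in the diet), with group means as lines and axes from 0. Disp2 and Sult1a1 change direction between the diets, while Mmp3, Lyve1 and Slc7a1 rise on both, by more on 60% fat.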

How the data were processed

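Per the labels' protocols, RNA of whole mouse lungs was sequenced; per the submitters' processing notes, bcl2fastq 2.19 and TopHat2 2.0.11 were used with mm8 and mm9. The authors deposited 1 table of RPKM values, and the sources used here do not name the program that made it. Failed values were treated as missing and entries marked as low data were dropped. Levels were analysed as log2(RPKM + 0.5) with limma 3.58.1 in R 4.3.3, after a filter of 1 RPKM in 3 libraries. The fit used group means over all 12 libraries with a trended prior variance. P-values were adjusted by Benjamini-Hochberg over 13324 genes and called under 0.05. The fit was also run on simulated data with independent errors and few changed genes. That run does not cover libraries that deviate together or changes in most genes. An exact permutation test of 3 against 3 cannot go below p = 0.1. Counts were not used: depth was only estimated. The main fits have no block. Across the 2 exposures on 10% fat, deviations correlated above 0.1 in 2 of 3 same-numbered pairs and in 1 of 6 other pairs. So few pairs do not settle whether the number pairs libraries of the 2 exposures. Same-numbered libraries of the 2 diets correlated above 0.1 in all 6 pairs within an exposure, so the difference between diets is also given with that block. The gene lists and the members were chosen with earlier results of these data known. Named genes are the 12 largest rises and falls averaging at least 3 RPKM in the higher group, without overlap and leaving out predicted and unnamed genes, the 6 largest RPKM gains and losses, the 6 largest differences between diets each way, and the 4 smallest p and 3 highest levels of each list; further names were chosen after their values were seen. Promoter windows come from RefSeq (GRCm38.p6), without chromosome 18, and were searched on both strands. Alternatives were pseudocounts of 0.1 and 1, no filter, 5 RPKM, median-ratio and quantile scaling, no trend, 6 libraries, a replicate block and leaving out each library. Some genes are not reported here.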

Additional observations from a re-analysis of the deposited data

Results flagged for a closer look

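The oxygen effect differed between the diets in 5 genes by the test of the difference itself (log2 change on 10% fat minus log2 change on 60% fat, limma, adjusted over 13324 genes). The difference was −2.65 ± 0.31 for Disp2 (adjusted p = 0.0198), −1.56 ± 0.20 for Mmp3 (adjusted p = 0.024), 0.94 ± 0.13 for Sult1a1 (adjusted p = 0.0282), −1.28 ± 0.18 for Lyve1 (adjusted p = 0.0309) and −0.70 ± 0.10 for Slc7a1 (adjusted p = 0.0483). Mmp3 had 53.5, 64.8 and 56.4 RPKM under oxygen and 24, 28.4 and 29.6 RPKM in room air on 10% fat, and 94.5, 88.3 and 97.01 RPKM under oxygen and 11.8, 18.6 and 13.95 RPKM in room air on 60% fat. Sult1a1 had 59.8, 51.2 and 54.8 RPKM under oxygen and 41.2, 40.8 and 34.4 RPKM in room air on 10% fat, and 35.04, 33.1 and 36.9 RPKM under oxygen and 45.4, 46.6 and 50.8 RPKM in room air on 60% fat.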

How the results depend on the processing

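The count of genes called on the 10% fat diet, 7923, ran over the other settings between 6351 (a filter of 5 RPKM in 3 libraries, 10367 genes tested) and 8470 (no filter, 17715 tested), and from 7028 (without 10% fat oxygen replicate 3) to 7463 (without 10% fat room-air replicate 1) when single libraries were left out. Genes called with at least 2-fold change numbered 1688, 2063 with a pseudocount of 0.1 and 1343 with one of 1. With the replicate number as a block 7798 genes were called. Same-numbered libraries of the 2 exposures had correlations of their deviations between −0.13 and 0.22, and other numbers between −0.33 and 0.27. These few overlapping values do not settle whether the numbers pair the libraries of the 2 exposures. S100a9 was called lower with this block (adjusted p = 0.00418). The 5 genes whose oxygen effect differed between the diets became 17 with the replicate block over all 12 libraries, 243 with the replicate block within each exposure (chosen after seeing the data) and 0 to 45 when single libraries were left out; the cause was not tested. These 5 differences lost their call in 6 (Disp2), 9 (Mmp3), 10 (Lyve1), 11 (Slc7a1) and 8 (Sult1a1) of 21 alternatives. Of the 344 called genes of the text, 54 lost the call in at least 1 of up to 15 alternatives; their highest adjusted p over these was under 0.1 for 23 (Cd79b, Clu, Cx3cr1, Cxcr2, Cyp26b1, Dhcr7, Emilin1, Gpm6a, Gstm2, Hspb8, Lrrn4, Mx1, Ndufs8, Pax5, Pmaip1, Pparg, Reln, Robo4, Rpl30, Sftpd, Sod3, Tagln and Ucp3), between 0.1 and 0.2 for 21 (Adipoq, Atp1b1, Bop1, Ccnd1, Cd28, Csf3r, Efemp1, Flt4, Hamp, Il1b, Il6ra, Lum, Ms4a1, Nlrp3, Nos3, Nr3c1, Pdgfra, Reg3g, Rrm1, Serpine2 and Wt1), and above 0.2 for 10, at 0.275 for Gpihbp1, 0.238 for Heatr1, 0.258 for Hhip, 0.282 for Il1rl1, 0.474 for Kcnj8, 0.227 for Mtf1, 1 for Scgb1a1, 0.222 for Serpind1, 0.999 for Sftpc and 0.242 for Tm7sf2. Of the 34 not called, 17 gained the call, with a lowest adjusted p under 0.01 for 8 (Aldh1a1, Cdh5, Cldn18, Cxcl5, Ldha, S100a9, Scgb3a1 and Vegfa) and between 0.01 and 0.05 for 9 (Aqp5, Arntl, Casp8, Chi3l3, Cxcl1, Hsf1, Pecam1, Tfpi and Xpc). Signs differed, all in genes not called, under median-ratio scaling Col1a1 0.072, Col3a1 0.045, Sftpb 0.005, Sod1 0.031 and Sod2 0.068; under quantile normalization Mcl1 −0.18 and Pcna −0.031 (log2 changes); over the fits that left out 1 library the values ran for Col1a1 −0.18 to 0.10, Col3a1 −0.24 to 0.18, Cxcl2 −0.14 to 1.28, Ddit3 −0.023 to 0.24, G6pdx −0.023 to 0.13, Mcl1 −0.045 to 0.11, Pecam1 −0.19 to 0.008, Sftpb −0.14 to 0.007, Sod1 −0.12 to 0.059, Sod2 −0.14 to 0.16 and Tnf −0.086 to 0.73. Depth is known only roughly, so counting error could not be given gene by gene, and 3 samples a group limit the precision of every value.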
